A study of Mus musculus with 6 samples.

Results

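Genes enriched on polyribosomes in every pair were a set of 51 genes, chosen by their own measured values among the 5968 protein-coding genes that reached a mean CPM (counts scaled to the library total) of 20 in the polyribosome libraries and lay outside the genes and families left out by name (0.855%). A gene was taken when its CPM in the polyribosome library was at least 1.6 times its CPM in the total RNA library of the same preparation, in each of the 3 preparations. The counts in the table covered 21958 protein-coding genes, of which 6457 reached 20 CPM. The families left out were those of histones, respiratory chain subunits, proton pumps, cytosolic and mitochondrial ribosomal proteins, solute carriers, mitochondrial import, proteasome subunits, G protein gamma subunits, Rab GTPases and potassium channels, together with the mitochondrially encoded genes, and 1 single gene, Gm20721, was left out by name as well. With these genes kept in, 61 met the rule, the 10 others being Slc32a1, Slc12a9, Gng5, Gm20721, Atp5d, H2afj, Hist1h4h, Hist1h4d, Hist1h2bc and Hist1h1c. With the ratio turned around, so that total RNA was at least 1.6 times higher in every pair, 205 genes were taken. The same genes were left out and the minimum of 20 CPM stayed on the polyribosome libraries. Genes under that minimum on polyribosomes could thus not enter, and the 205 are not an exact mirror of the 51.

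The libraries came from synaptoneurosomes, a preparation enriched in synaptic terminals pinched off from the rest of the cell, of cortex and hippocampus of male FVB mice aged 6 to 8 weeks. The group called NMDA polyribosomes (3 libraries) held RNA of light and heavy polyribosomes, pooled from a sucrose gradient of synaptoneurosomes given a 30 s pulse of 50 µM NMDA and 10 µM glutamate, then 120 µM APV, an NMDA receptor blocker, and kept for 20 min. The group called unstimulated total (3 libraries) held total RNA of synaptoneurosomes that were not stimulated. The material of 6 mice was pooled for a preparation and divided among the groups, so each library is a pool of animals. By the study's methods, stimulated synaptoneurosomes were kept warm, while unstimulated controls stayed on ice with cycloheximide, an inhibitor of protein synthesis. Stimulation, temperature, cycloheximide and fraction thus changed together, and their shares in a difference cannot be told apart.

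A polyribosome is an mRNA carrying several ribosomes, and its weight takes it to the lower part of a sucrose gradient, so RNA collected there is mostly RNA under translation. mRNAs of secreted and membrane proteins are translated on ribosomes that dock to the endoplasmic reticulum, directed there by a hydrophobic signal at the start of the new protein. Synaptoneurosomes hold pieces of neurons together with attached processes of astrocytes and fragments of other cells. Fewer fragments of a cell type and less RNA per fragment cannot be told apart in such bulk samples.

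The counts on protein-coding genes summed to between 5294482 and 7361580 in the polyribosome libraries and to between 1044955 and 3738022 in the total RNA libraries. The shallowest library was the total RNA of preparation 3, and it held the lowest count of all 51 genes. That lowest count had a median of 65, was under 20 for 8 genes and was 6 for Teddm2. The share of counts from mitochondrially encoded genes was 1.39 to 2.39% in the polyribosome libraries and 3.44 to 4.28% in the total RNA libraries, and its part in the differences was not tested. Fold values are ratios of CPM scaled to the library total, and the median gene past 20 CPM had a fold of 0.973, 0.993 and 0.968 in pairs 1, 2 and 3. With library sizes rescaled by TMM, which leaves out the genes that differ most, 125 genes met the rule, among them all 51.

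The largest group among the 51 genes encoded proteins that leave the cell or stand on its surface. These included 4 neuropeptide precursors, 7 secreted factors, 5 proteins of the extracellular matrix and 9 proteins of the cell surface, and 4 more genes encoded proteins of the endoplasmic reticulum and secretory pathway. The others were 6 metal-binding and redox proteins, 4 enzymes of energy and carbon metabolism, 3 genes of the ubiquitin system, 2 lipid-binding proteins, 2 other membrane proteins and 5 genes of other kinds. These classes were drawn up after the genes were known. The wider list of extracellular matrix proteins and protease inhibitors had none of the 51 among its 31 genes past 20 CPM, although 25 of the 31 were higher in every pair with a median mean log2 fold of 0.46. The list of the endoplasmic reticulum translocon, signal peptidase and glycosylation had none among 35, of which 19 were higher in every pair with a median of 0.31. Of all genes past 20 CPM, 30.2% were higher in every pair. On the transcript with the longest coding sequence, 27 of 51 genes (52.9%) opened with a hydrophobic stretch, against 24.4% of genes past 20 CPM and 3.9% of the genes lower in every pair. The stretch was scored as a run of 10 residues within the first 35 with a mean Kyte-Doolittle value, a scale on which oily residues are positive, of 2 or more. The score is a cut on hydrophobicity and does not call signal peptides. Spr, an enzyme of tetrahydrobiopterin synthesis, passed it with a value of 2.16. With the principal transcript of the annotation the count was 29 of 51 (56.9%), against 24.8% and 3.41%.

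The first 90 bases of the coding sequence are shown for 11 of these genes, because they carry the hydrophobic stretch scored above. Each was read from the principal transcript of the Gencode vM21 annotation on GRCm38, 5′ to 3′, and the capitals mark the 30 bases that encode the most hydrophobic run of 10 residues. The neuropeptides and secreted factors come first, then the matrix proteins.
Sst (chromosome 16, minus strand, start codon at 23890744): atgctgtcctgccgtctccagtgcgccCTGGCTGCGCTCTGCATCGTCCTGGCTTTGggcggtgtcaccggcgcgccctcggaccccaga
Npy (chromosome 6, plus strand, start codon at 49823598): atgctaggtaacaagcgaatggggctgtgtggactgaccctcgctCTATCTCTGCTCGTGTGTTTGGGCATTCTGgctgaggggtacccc
Cck (chromosome 9, minus strand, start codon at 121494530): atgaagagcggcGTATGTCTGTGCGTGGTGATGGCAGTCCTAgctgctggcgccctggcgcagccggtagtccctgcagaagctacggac
Vgf (chromosome 5, plus strand, start codon at 137030986): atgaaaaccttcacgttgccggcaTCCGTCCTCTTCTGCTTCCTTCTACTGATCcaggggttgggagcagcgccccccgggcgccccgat
C1qtnf4 (chromosome 2, plus strand, start codon at 90889385): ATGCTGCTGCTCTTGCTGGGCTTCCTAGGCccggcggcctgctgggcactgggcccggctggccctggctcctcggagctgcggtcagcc
Mdk (chromosome 2, minus strand, start codon at 91931447): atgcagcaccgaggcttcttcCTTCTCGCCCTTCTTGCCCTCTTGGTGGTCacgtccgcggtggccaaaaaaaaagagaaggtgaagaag
Apoe (chromosome 7, minus strand, start codon at 19698230): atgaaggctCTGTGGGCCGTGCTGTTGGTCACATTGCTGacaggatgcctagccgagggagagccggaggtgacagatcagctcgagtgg
Igfbp2 (chromosome 1, plus strand, start codon at 72824580): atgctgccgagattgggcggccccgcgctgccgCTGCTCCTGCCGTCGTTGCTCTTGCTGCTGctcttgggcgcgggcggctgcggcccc
Igfbp6 (chromosome 15, plus strand, start codon at 102144548): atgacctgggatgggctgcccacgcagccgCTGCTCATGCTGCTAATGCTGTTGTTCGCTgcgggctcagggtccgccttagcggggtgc
Eln (chromosome 5, minus strand, start codon at 134747241): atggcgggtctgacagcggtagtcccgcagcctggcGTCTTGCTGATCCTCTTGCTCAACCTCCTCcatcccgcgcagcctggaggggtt
Matn4 (chromosome 2, minus strand, start codon at 164401920): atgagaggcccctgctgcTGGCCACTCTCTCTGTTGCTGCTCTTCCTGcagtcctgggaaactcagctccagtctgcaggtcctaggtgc

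The marked runs had mean hydrophobicity values from 2.23 for Matn4 to 3.48 for Mdk. Mif and Ckb stand for the genes without such a stretch, and no window of their opening reached the threshold. Mif, the macrophage migration inhibitory factor, is secreted without a classical signal peptide, and Ckb, the brain creatine kinase, is a cytosolic enzyme.
Mif (chromosome 10, minus strand, start codon at 75860168): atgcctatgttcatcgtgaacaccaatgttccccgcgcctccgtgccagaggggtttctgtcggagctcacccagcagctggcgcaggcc
Ckb (chromosome 12, minus strand, start codon at 111671958): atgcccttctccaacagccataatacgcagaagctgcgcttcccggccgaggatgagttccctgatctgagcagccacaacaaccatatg

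Both metallothioneins of the set, small cysteine-rich proteins that bind zinc and copper, are shown whole with their neighbour Mt2, which fell outside it. Each cysteine codon is in capitals.
Mt1 (chromosome 8, plus strand, start codon at 94179311): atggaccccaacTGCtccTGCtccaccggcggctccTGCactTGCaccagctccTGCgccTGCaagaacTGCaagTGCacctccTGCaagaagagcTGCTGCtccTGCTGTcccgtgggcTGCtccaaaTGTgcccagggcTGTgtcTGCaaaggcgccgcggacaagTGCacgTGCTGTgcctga
Mt2 (chromosome 8, plus strand, start codon at 94172848): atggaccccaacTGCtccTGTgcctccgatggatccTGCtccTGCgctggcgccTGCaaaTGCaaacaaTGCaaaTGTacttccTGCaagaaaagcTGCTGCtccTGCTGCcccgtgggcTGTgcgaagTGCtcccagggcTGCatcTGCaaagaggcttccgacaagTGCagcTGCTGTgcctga
Mt3 (chromosome 8, plus strand, start codon at 94152800): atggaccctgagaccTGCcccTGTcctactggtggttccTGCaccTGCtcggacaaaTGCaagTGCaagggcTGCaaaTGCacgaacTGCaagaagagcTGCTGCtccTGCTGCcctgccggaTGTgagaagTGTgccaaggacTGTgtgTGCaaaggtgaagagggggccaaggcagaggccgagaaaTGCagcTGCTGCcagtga

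All 3 coding sequences held 20 cysteine codons, in 61 codons for Mt1 and 68 for Mt3. The genes lie within a cluster on chromosome 8, Mt3 at chr8:94152607-94154148 and Mt1 at chr8:94179089-94180325, both on the plus strand of GRCm38.

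The 51 genes together made up 1.96, 1.91 and 3.15% of the counts in polyribosome libraries 1, 2 and 3, and 0.896, 1.05 and 1.59% in total RNA libraries 1, 2 and 3. Apoe, Aldoc and Ckb gave most of this in every library, and without them the shares were 0.735, 0.787 and 1.12% on polyribosomes and 0.364, 0.447 and 0.572% in total RNA. Preparation 3 stood highest in both groups. Its total RNA share (1.59%) came near the polyribosome share of preparation 2 (1.91%), and within each preparation the polyribosome library was the higher.

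**Figure D1:**
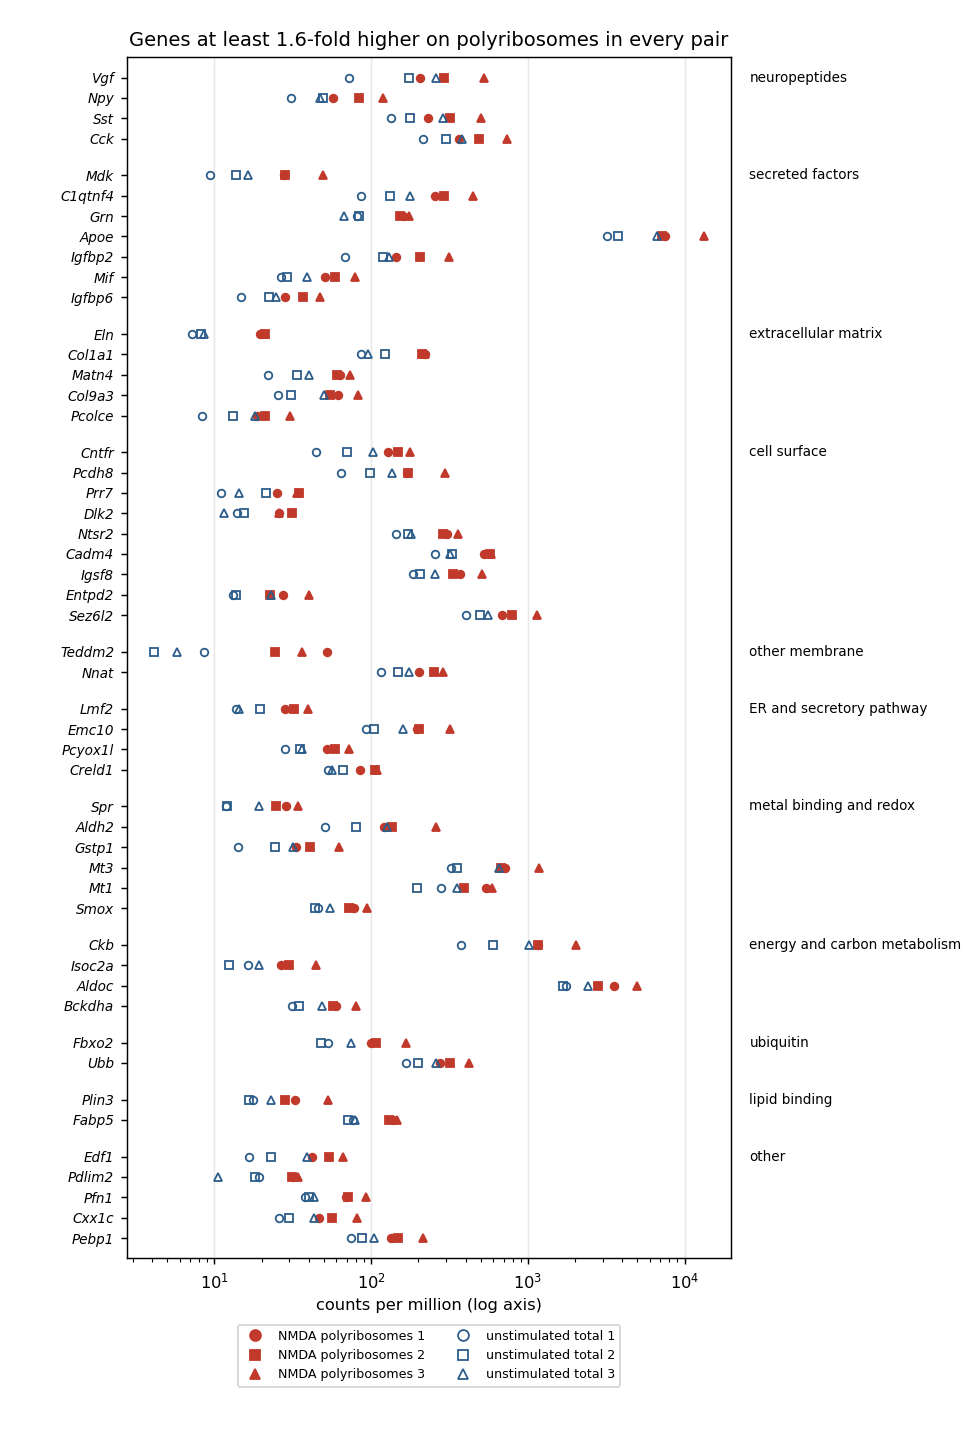
CPM (log axis) of the 51 genes in the 6 libraries, 1 gene not drawn, grouped by the class of the encoded protein, with filled red symbols for NMDA polyribosomes, open blue symbols for unstimulated total RNA and 1 symbol shape for each preparation. For all genes drawn except Sst, Aldh2, Vgf, Entpd2 and Cck, every red symbol lies to the right of every blue one, and the mean polyribosome levels reach from 20.6 CPM for Eln to a mean of 9330 CPM for Apoe.

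The neuropeptides are packed in dense core vesicles and released from neurons. Sst, somatostatin, which marks a class of inhibitory interneurons, had 229, 319 and 501 CPM on polyribosomes and 133, 177 and 288 CPM in total RNA. Cck, cholecystokinin, had 364, 486 and 740.0 CPM on polyribosomes and 213, 302 and 378 CPM in total RNA. Npy, neuropeptide Y, had 57.5, 83.1 and 118 CPM on polyribosomes and 30.8, 49.2 and 46.9 CPM in total RNA. In Sst and Cck the polyribosome value of preparation 1 lay under the total RNA value of preparation 3, so the groups overlapped although every pair was apart, and in Npy they did not overlap. Vgf, the precursor of several peptides and a gene induced by neurotrophins, had 204, 293 and 524 CPM on polyribosomes and 72.5, 174 and 258 CPM in total RNA, again with overlap between preparations. The folds of Sst were alike in the 3 pairs (1.72, 1.81 and 1.74), while those of Vgf spread (2.81, 1.68 and 2.03). On the list of inhibitory neuron markers and neuropeptides, 21 genes passed 20 CPM and 4 of them were among the 51. Of the 21, 14 were higher on polyribosomes in every pair, where 30.2% of all genes past 20 CPM were. The median mean log2 fold was 0.44 for the 21 and 0.352 for the 17 outside the 51. That of all genes past 20 CPM was -0.02. Of the 27 genes of this list that were tested, edgeR's unpaired test called 1 higher (Pnoc), where it called 0.710% of all genes tested, and the test with the replicate number as a block called 15 higher and 2 lower, where it called 11.8% of all genes tested higher. Pcsk1n, a granin-like precursor, had means of 534 and 310 CPM and missed the rule in pair 2 only, where its fold was 1.43. The enzymes that make GABA ran the other way, with means of 46.2 against 77.8 CPM for Gad2 and 84.0 against 119.6 CPM for Gad1. Slc32a1 of the same list, the vesicular GABA transporter, was higher, with folds of 2.02, 1.77 and 1.93, and was left out by its name only.

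Among the secreted factors, C1qtnf4, a C1q and TNF related protein, had 257, 289.6 and 446 CPM on polyribosomes and 86.4, 132 and 178 CPM in total RNA. Every polyribosome value of C1qtnf4 exceeded every total RNA value, with folds of 2.97, 2.19 and 2.51. Mdk, midkine, a heparin-binding growth factor, had 27.6, 28.0 and 48.9 CPM on polyribosomes and 9.36, 13.8 and 16.3 CPM in total RNA. Mif had 50.8, 58.9 and 79.1 CPM on polyribosomes and 26.5, 29.2 and 39.2 CPM in total RNA, and its folds differed little between pairs (1.92, 2.02 and 2.02). Grn, progranulin, a protein of the lysosome and the extracellular space, had 161, 153 and 174 CPM on polyribosomes and 80.8, 83.6 and 67.0 CPM in total RNA. Its groups were far apart relative to their spread, 163 ± 10.7 CPM on polyribosomes and 77.1 ± 8.88 CPM in total RNA (SD, n = 3). Apoe, apolipoprotein E, the main lipid carrier made by astrocytes, had the highest level of the 51, with 7519, 7213 and 13260 CPM on polyribosomes and 3196, 3763 and 6702 CPM in total RNA. Apoe was highest in preparation 3 in both groups, and its lowest polyribosome value still exceeded its highest total RNA value. Per kilobase of transcript, Apoe had a mean level of 6627 CPM on polyribosomes, against 1783 for Mt3 and 1355 for Aldoc.

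Igfbp2 and Igfbp6 bind insulin-like growth factors outside the cell. Igfbp2 had 143, 204 and 312 CPM on polyribosomes and 67.7, 118 and 130.1 CPM in total RNA, and Igfbp6 had 28.1, 36.6 and 46.8 CPM on polyribosomes and 14.7, 22.4 and 24.9 CPM in total RNA. Of the 5 genes of this family past 20 CPM all were higher on polyribosomes in every pair, and 2 met the rule. Igfbp7 had means of 55.6 and 26.6 CPM without reaching 1.6 in every pair, and Igfbp4 and Igfbp5 had mean log2 folds of 0.32 and 0.28. On the wider list of growth factors and their binding proteins, 4 of 25 genes past 20 CPM were among the 51 (Mdk, Mif, Igfbp2 and Igfbp6). Of the 25, 15 were higher in every pair, where 30.2% of all genes past 20 CPM were. The median mean log2 fold was 0.28 for the 25 and 0.165 for the 21 outside the 51. Of 37 tested genes edgeR's unpaired test called 2 higher (Mdk and Mif, both of the 51), where it called 0.710% of all genes tested. The paired test called 11 higher and 1 lower, where it called 11.8% of all genes tested higher. Bdnf and Vegfa, with mean log2 folds of 0.01 and 0.02, were near equal in the groups.

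Col1a1, a chain of the main fibrillar collagen, had 219.5, 209.7 and 221 CPM on polyribosomes and 86.1, 122 and 95.7 CPM in total RNA, with small spread within either group. Eln, elastin, had 19.6, 21.1 and 21.0 CPM on polyribosomes and 7.22, 8.25 and 8.61 CPM in total RNA. Each group of Eln values lay close together, although its total RNA values rested on as few as 9 counts. Matn4, a matrilin, had folds of 2.89, 1.79 and 1.83, Col9a3, a collagen chain, of 2.42, 1.76 and 1.66, and Pcolce, which enhances the processing of procollagen, of 2.26, 1.62 and 1.67. Fibroblasts of the meninges and vessel walls are known to make Col1a1, Igfbp2 and Pcolce, and on a list of fibroblast and meningeal markers drawn up after the values were seen these were 3 of the 15 genes past 20 CPM. The list summed to 1333 to 1581 CPM in the polyribosome libraries and 903 to 1135 CPM in the total RNA libraries. Of the 15, 13 were higher in every pair, where 30.2% of all genes past 20 CPM were. Of 18 tested genes edgeR's unpaired test called 3 higher (Col1a1, Col1a2 and Col6a2), where it called 0.710% of all genes tested. The paired test called 12, where it called 11.8%. Since the list was drawn up after the values were seen, the counts are a description only. The part of such cells in the result was not tested. Lum and Dcn, defining genes of fibroblasts, had mean log2 folds of 0.13 and 0.23.

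**Figure D2:**
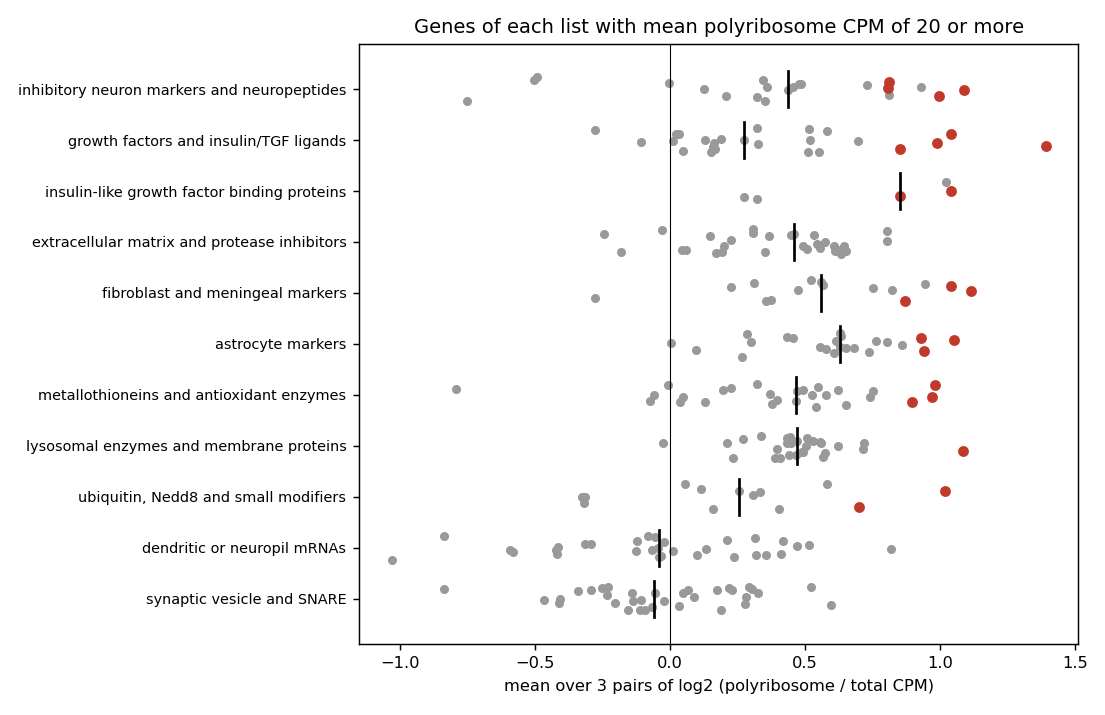
Mean over the 3 pairs of the log2 ratio of polyribosome to total CPM for genes of 11 lists past 20 CPM, with red points for the 51 genes, grey points for the other genes of the list and a black bar at the list median. The medians of the astrocyte, lysosomal and matrix lists lie between 0.46 and 0.63, and those of the dendritic and synaptic vesicle lists lie just under 0.

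Of the 9 genes of the cell surface, Cadm4, an adhesion molecule of glia and myelin, had 528, 569 and 581 CPM on polyribosomes and 255, 328 and 319 CPM in total RNA, and its groups lay far apart in every preparation. Sez6l2, a neuronal membrane protein, had 682, 798 and 1136 CPM on polyribosomes and 402, 494 and 554 CPM in total RNA. Igsf8, an immunoglobulin superfamily protein, had folds of 2.01, 1.61 and 2.01, and Pcdh8, an activity-regulated protocadherin, had folds of 2.64, 1.76 and 2.17. Cntfr, which binds ciliary neurotrophic factor, had 128, 148 and 177 CPM on polyribosomes and 44.4, 70.2 and 103 CPM in total RNA. Ntsr2, a neurotensin receptor found in astrocytes, had 304, 287 and 358 CPM on polyribosomes and 143, 172 and 179 CPM in total RNA. The less abundant members of this class were Dlk2, Entpd2 and Prr7, with mean polyribosome levels of 27.5, 30.0 and 31.1 CPM. Entpd2 overlaps Npdc1 on the same strand, and 29.9% of its 50-base words occur in other transcripts, so its counts are uncertain.

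Of 23 astrocyte markers past 20 CPM, 21 were higher on polyribosomes in every pair, where 30.2% of all genes past 20 CPM were. Of the 23, 3 (Apoe, Aldoc and Ntsr2) met the rule. The median mean log2 fold was 0.63 for the 23 and 0.61 for the 20 outside the 51. By edgeR's unpaired test 1 of the 23, Ntsr2, was called higher, where 0.710% of all genes tested were. By the paired test 20 were called higher, where 11.8% of all genes tested were. The list summed to 72930 to 85300 CPM on polyribosomes and 55110 to 62010 CPM in total RNA. Gfap, the filament protein of astrocytes, had a mean log2 fold of 0.63 and Aqp4, their water channel, had 0.01. The lists of oligodendrocyte, microglia, and endothelial and mural markers held none of the 51, with medians of 0.32 for oligodendrocyte, 0.29 for microglia and 0.34 for endothelial and mural markers. Past 20 CPM, 12 of 16 oligodendrocyte, 10 of 13 microglia and 6 of 15 endothelial and mural markers were higher in every pair. The paired test called 8 of 18, 4 of 17 and 5 of 19 higher in the same order, and 1 endothelial and mural marker lower. The unpaired test called 1 gene of these lists higher, the oligodendrocyte marker Cldn11. The part of RNA of astrocytes or of these other cells in the result was not tested.

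In the endoplasmic reticulum, Emc10, a subunit of the complex that inserts membrane proteins, had 197, 202 and 319 CPM on polyribosomes and 92.0, 104 and 159.8 CPM in total RNA. Of the 8 subunits of that complex past 20 CPM, 4 were higher in every pair and Emc10 alone met the rule. Emc4 had a mean log2 fold of 0.72, Emc1 0.40, Emc2 -0.14 and Mmgt1 -0.44. Lmf2, which matures lipases, had folds of 2.07, 1.64 and 2.74, Creld1 of 1.605, 1.603 and 1.93 and Pcyox1l of 1.83, 1.68 and 1.99. Of 28 lysosomal genes past 20 CPM, 26 were higher in every pair, where 30.2% of all genes past 20 CPM were. The median was 0.470, or 0.468 without Grn, which alone met the rule. Of 30 tested genes of this list, edgeR's unpaired test called 1 higher (Grn), where it called 0.710% of all genes tested. The paired test called 25 higher, where it called 11.8% of all genes tested.

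Mt3, the metallothionein of neurons and astrocytes, had 709.9, 671 and 1171 CPM on polyribosomes and 324, 352 and 652 CPM in total RNA, and Mt1 had 542, 389 and 589 CPM on polyribosomes and 279, 196 and 352 CPM in total RNA. Mt2 was higher as well, with means of 228 and 160 CPM, but its mean log2 fold was 0.54 against 0.97 for Mt3 and 0.90 for Mt1. Among the other redox enzymes, Aldh2, which clears aldehydes in mitochondria, had folds of 2.37, 1.68 and 2.07, Smox, spermine oxidase, of 1.69, 1.65 and 1.73 and Spr, an enzyme of tetrahydrobiopterin synthesis, of 2.42, 2.06 and 1.796. Gstp1, a glutathione transferase, had folds of 2.35, 1.67 and 1.96, but 62.3% of its 50-base words are shared, mainly with Gstp2, so counts of these genes cannot be kept apart. On the list of metallothioneins and antioxidant enzymes, 3 of 27 genes past 20 CPM were among the 51. Of the 27, 20 were higher in every pair, where 30.2% of all genes past 20 CPM were. The median mean log2 fold was 0.465 for the 27 and 0.388 for the 24 outside the 51. Of its 30 tested genes edgeR's unpaired test called 0 higher, where it called 0.710% of all genes tested. The paired test called 16 higher, all 3 metallothioneins among them, and 1 lower. That test called 11.8% of all genes tested higher.

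Aldoc, the aldolase of astrocytes, and Ckb, which buffers ATP, had the highest levels per kilobase of the enzymes, with 1355 and 985 CPM on polyribosomes. Aldoc had 3526, 2810 and 4992 CPM on polyribosomes and 1758, 1666 and 2434 CPM in total RNA. Ckb had 1160, 1167 and 2022 CPM on polyribosomes and 372, 601 and 1016 CPM in total RNA, so that its fold was 3.12, 1.94 and 1.99 and pair 1 stood apart. The related Aldoa had a mean log2 fold of 0.61 and the mitochondrial Ckmt1 had -0.21. Bckdha, a subunit of the branched-chain keto acid dehydrogenase, had folds of 1.897, 1.66 and 1.63 and Isoc2a of 1.64, 2.42 and 2.33. Of the ubiquitin genes, Ubb had folds of 1.65, 1.603 and 1.62, while Rps27a, which encodes ubiquitin fused to a ribosomal protein, had a mean log2 fold of -0.16 and belongs to a family left out by name. Fbxo2, an F-box protein that recognises glycoproteins, had 100.4, 108 and 168 CPM on polyribosomes and 52.7, 48.1 and 74.6 CPM in total RNA. Ubb shares 61.0% of its 50-base words with pseudogenes, which limits its value.

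Fabp5, a fatty acid binding protein, had 138, 130.5 and 146 CPM on polyribosomes and 77.0, 70.8 and 78.5 CPM in total RNA with an SD of its log2 fold over pairs of 0.03. Plin3, a lipid droplet protein, had folds of 1.84, 1.71 and 2.29. Pfn1, profilin, which binds actin monomers, had 68.6, 71.2 and 92.7 CPM on polyribosomes and 37.7, 40.2 and 43.1 CPM in total RNA, whereas Pfn2, its neuronal relative, had a mean log2 fold of -0.30. Pebp1, Edf1, Pdlim2 and Cxx1c had geometric mean folds of 1.84, 2.16, 2.10 and 1.87. Nnat, neuronatin, a small membrane protein, had folds of 1.75, 1.69 and 1.66.

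Teddm2, a transmembrane epididymal family gene, had 52.2, 24.2 and 36.1 CPM on polyribosomes and 8.56, 4.13 and 5.74 CPM in total RNA, and its folds of 6.09, 5.87 and 6.28 were the largest of the 51 in every pair. Its gene model, at chr1:153849542-153900228 on the minus strand, overlaps Gm38352 on its own strand and Teddm1a, Teddm1b and Glul on the other. Glul, glutamine synthetase, had means of 4353 and 2837 CPM. Whether the authors counted by strand is not given in the sources used here, so the counts of Teddm2 cannot be assigned to that gene alone.

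At the lower edge of the rule, the smallest fold over the pairs was 1.603 for Ubb, 1.603 for Creld1 and 1.61 for Cck. Just outside stood Gstm1, whose fold in pair 2 rounded to 1.6 but fell short of it, Cystm1 with a smallest fold of 1.598 and Nid2 with 1.597. The smallest fold was under 1.7 for 27 of the 51 genes and at least 2 for 4. The geometric mean fold ran from 1.62 to 6.08 with a median of 1.98, and 24 genes were at 2 or more. The exact 95% interval of the ratio of counts, which covers counting error only, lay above 1 in every pair for all 51 genes and above 1.6 in every pair for 9 (Teddm2, C1qtnf4, Ckb, Emc10, Apoe, Fbxo2, Mt3, Cadm4 and Aldoc). For the other 42 genes the interval reached under 1.6 in at least 1 pair. The same counts chose the genes, so the intervals are a description and no support is drawn from them.

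Groups did not overlap in 46 of the 51 genes, against 17.8% of genes past 20 CPM, and overlapped in Sst, Aldh2, Vgf, Entpd2 and Cck. The same contrast chose the genes, so nothing is read from this or from the following counts. By edgeR's quasi-likelihood test without pairing, at an adjusted p under 0.01, 23 of 51 were higher, where 0.710% of all 12255 genes tested were higher and 2.36% lower. With the replicate number as a block all 51 were higher, where 11.8% of all genes were. DESeq2 called 42 of them, against 2.18% of all genes, and with the block and an offset for GC and length 48 were called, against 13.1%.

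The pairs were not alike. The median fold of the 51 genes was 2.07, 1.72 and 2.00 in pairs 1, 2 and 3. The smallest of the 3 folds fell in pair 2 for 34 of 51 genes, where it fell for 23.6% of genes past 20 CPM, and the largest fell in pair 1 for 25 and in pair 3 for 22. The rule used these folds, so no trait of the genes is read from this. Of the 5968 genes outside those left out by name, a fold of 1.6 or more was reached by 4.89% in pair 1, 2.41% in pair 2 and 10.1% in pair 3, and pair 2 thus held the fewest.

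**Figure D3:**
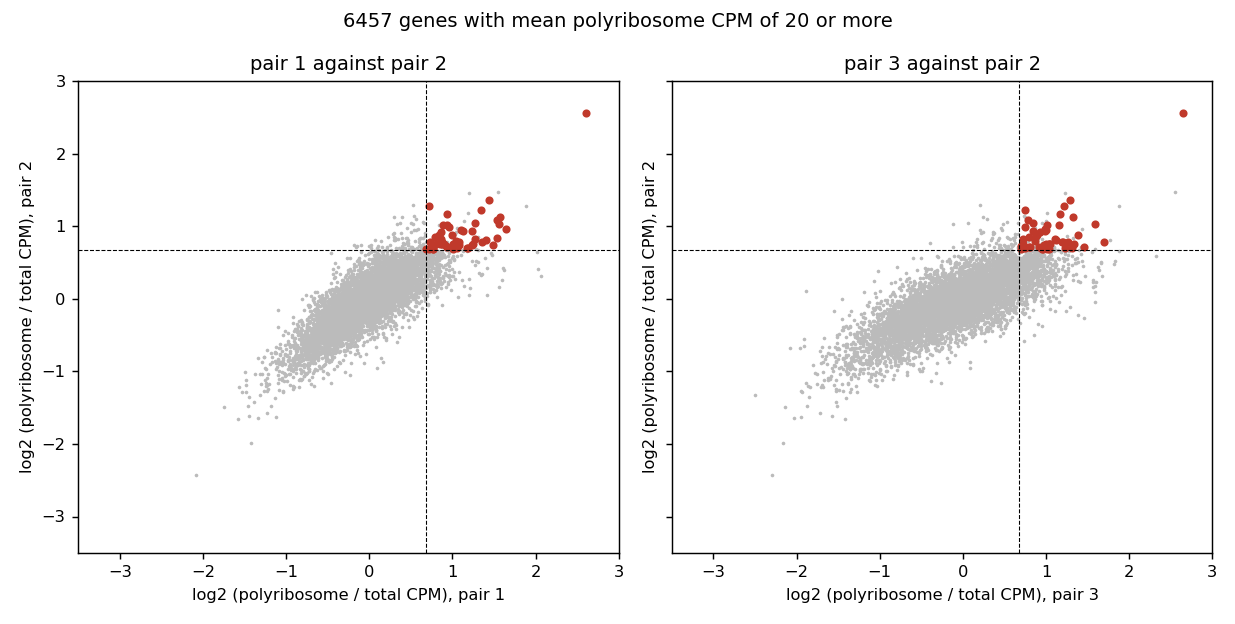
Log2 ratio of polyribosome to total CPM of each gene past 20 CPM, pair 1 or pair 3 on the horizontal axis and pair 2 on the vertical axis, with the 51 genes in red and dashed lines at 1.6-fold. The red points fill the upper right corner by the rule, Teddm2 lies alone near 6-fold, and most red points lie close to the line of pair 2.

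Genes were also chosen on 2 pairs and read in the third. Genes chosen in the same way on pairs 1 and 3 numbered 149, and in pair 2, which had no part in choosing them, 55 of the 149 (36.9%) reached 1.6-fold, against 2.5% of all genes that passed the CPM minimum and were not left out by name. Chosen on pairs 2 and 3, 53 of 91 (58.2%) reached it in pair 1, against 5.06%. Chosen on pairs 1 and 2, 50 of 67 (74.6%) reached it in pair 3, against 9.75%. The median fold in the held-out pair was 1.71, 1.53 and 1.895 for pairs 1, 2 and 3, against 0.974, 0.985 and 0.942 for all such genes, and 97.0 to 98.7% of the chosen genes were above 1. The 3 readings are not independent, since a chosen gene that also reaches 1.6-fold in the held-out pair meets the ratio in every pair. Genes are not replicates, so the shares are a description and no test was made.

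**Figure D4:**
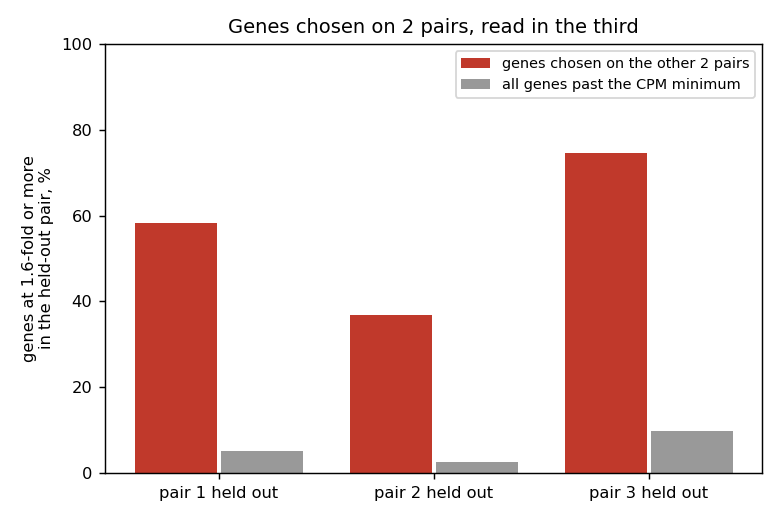
Share of genes at 1.6-fold or more in a pair held out of the choice, with red bars for genes chosen on the other pairs and grey bars for all genes that passed the CPM minimum and were not left out by name. The red bars stand at 58.2, 36.9 and 74.6% and the grey bars at 5.06, 2.5 and 9.75%.

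The 51 transcripts were short and rich in G and C, properties the rule did not use. The median transcript had 1578 bases, against 3756 for genes past 20 CPM and 6277 for the 205 genes lower in every pair. The median GC content was 58.4%, against 50.9 and 44.0%. The median 3′ untranslated region had 312 bases, against 1328 and 1760. Of the 51, 26 (51.0%) were both under 2000 bases and at 55% GC or more, which held for 6.74% of genes past 20 CPM. The letters around the start codon did not set the genes apart, since both favoured ones, a purine upstream of the start codon and a G after it, were present in 45.1% against 43.8%.

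Read the other way, among the genes not left out by name and with an annotated transcript, the share that belonged to the 51 was 26 of 373 (6.97%) for short GC-rich transcripts, 15 of 1261 (1.19%) for long GC-rich ones, 6 of 532 (1.13%) for short GC-poor ones and 4 of 3787 (0.106%) for long GC-poor ones. Of the 108 short GC-rich transcripts that also opened with a hydrophobic stretch, 13 were among the 51. Across 6436 genes past 20 CPM the mean log2 fold had a Spearman correlation of 0.52 with GC content and -0.45 with transcript length, given as a description since the genes share libraries and base composition. The correlation with GC content was 0.56, 0.56 and 0.36 in pairs 1, 2 and 3.

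**Figure D5:**
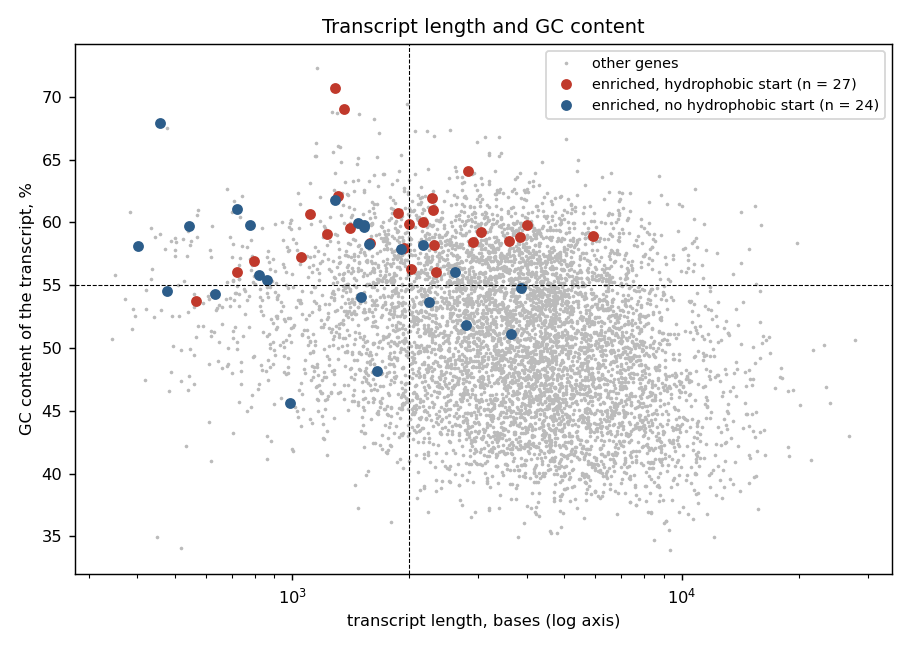
Transcript length in bases (log axis) and GC content in % of genes past 20 CPM, with the 51 genes in red where the protein opens with a hydrophobic stretch (n = 27) and in blue where it does not (n = 24), and dashed lines at 2000 bases and 55% GC. The upper left field, short and GC-rich, holds 26 of the 51 genes.

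With an offset for GC content and length in the paired fit, the median log2 fold change of the 51 genes was 0.76 where it was 1.07 in the paired fit without it, and that of all genes tested was 0.10. The values stayed positive for all 51, but Nnat fell to 0.14, Prr7 to 0.38 and Igfbp6 to 0.49, and these 3 did not pass the test. With the offset but without the block, 4 of the 51 and 7 of all genes tested were called higher. The same contrast chose the genes, so these values are a description only. The part of length and base composition in the differences was not tested. Of the 51 genes, 9 share 10% or more of their 50-base words with other genes' transcripts, Mif (51.1%), Pebp1 (49.2%), Ckb (21.9%), Fabp5 (21.1%), Edf1 (15.5%) and Sez6l2 (10.3%) besides those named above, while 37 share none, and 16 overlap another gene.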

How the data were processed

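RNA of 6 libraries was compared, 3 of NMDA polyribosomes and 3 of unstimulated total RNA, grouped by the labels. The authors depleted ribosomal RNA, made strand-specific libraries, mapped reads with STAR 2.5.2b to GRCm38 and deposited whole-number counts for 21958 protein-coding genes of the Gencode vM6 basic annotation, without normalization. The table also holds the authors' DESeq2 results (log2 fold change with its standard error, p-values), which were not used. Whether reads were counted by strand is not given in the sources used here.

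CPM was the count divided by the library total of these genes. The enriched genes, classes and lists were chosen with earlier results of these data known, and the classes and the lists of fibroblast markers and of single families were drawn up after the values were seen. Of the list genes outside the 51, those named were picked after their values were seen. The others named are the genes with the highest smallest fold (12) or highest polyribosome CPM (8), those on a list, those nearest the threshold, and the 10 with the largest mean fold at 100 counts or more in every library.

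EdgeR 4.0.16 in R 4.3.3 (TMM, filterByExpr, quasi-likelihood test, Benjamini-Hochberg adjustment, threshold 0.01) was fitted to all 12255 genes kept and tested on simulated data. DESeq2 1.42.0, other normalizations and filters, a replicate block, a GC and length offset and leaving out each library were alternatives. Libraries with the same number come from 1 preparation by the study's methods and the column names, and across genes the residuals of such libraries about their group mean had correlations of 0.51, 0.47 and 0.57 (other combinations -0.5 to 0.24), so the numbers pair the samples. Replicates differed beyond sampling noise. Transcript properties came from Gencode vM21 (GRCm38), matched for 21054 genes (95.9%) and all 51. Counting intervals are exact binomial intervals of 95% and cover counting error only. The values of 1 of the 51 genes and the sequence of another are not reported here.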

Additional observations from a re-analysis of the deposited data

How the results depend on the processing

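The number of genes enriched in every pair, 51, depended on the scaling and the ratio. It was 125 with TMM-scaled library sizes, 115 with DESeq2 size factors, 100 at a ratio of 1.5, 4 at a ratio of 2, 10 when the lowest polyribosome value had to exceed the highest total value by the ratio, and 67 to 149 when 1 pair was left out, the highest without pair 2 and 91 without pair 1. Thinning all libraries to the smallest total gave a median of 70 genes over 10 draws, with 26 to 38 of the 51 kept. In the unpaired edgeR fit, 87 genes and 23 of the 51 were called higher. DESeq2 called 257 and 42, scaling by total counts called 42 genes, testing all genes with at least 1 count called 476 and 51, and the GC and length offset without the block, added after the data were seen, called 7 and 4. The replicate block called 1441 genes and all 51, and with the offset 1592 and 48. Leaving out a library gave 0 to 61 genes and 0 to 27 of the 51. Without total RNA library 2 the counts were 0 and 0, and without total RNA library 1 they were 2 and 1. Without polyribosome library 2 they were 11 and 4, without polyribosome library 1 they were 48 and 22, and without polyribosome library 3 they were 42 and 16. The cause was not tested. The median log2 fold change of the 51, 1.11, was 0.76 with block and offset, 0.77 with the offset alone and 0.869 to 1.277 with a library left out. All 51 stayed positive in every fit run, but the rule had chosen them for high folds in these same libraries, so nothing is read from this. The held-out shares and the medians of transcript length, GC content and hydrophobic starts moved by less than 1.5 times under the alternatives run. Counts in total RNA library 3, the shallowest, limit the precision of the weaker genes.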
